A study of Homo sapiens with 9 samples.

Results

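The chromobox genes measured here were CBX1, CBX2, CBX3, CBX5, CBX6, CBX7 and CBX8. They were chosen by gene symbol, among them CBX5, the gene for HP1 alpha, because earlier results of the same libraries had shown it low with 1 of the siRNAs. They are 7 of the 58395 gene identifiers in the count files, and all 7 passed the filter on low counts that left 16575 genes for testing. The 9 RNA libraries came from MDA-MB-231 cells, an established line of human breast cancer that lacks hormone receptors and ERBB2 amplification, harvested 96 h after transfection in suspension (reverse transfection). NC received a nontargeting control siRNA, and the groups SKP2-siRNA1 and SKP2-siRNA2 (SKP2-1 and SKP2-2 in the sample titles) each received a different siRNA against SKP2, with 3 libraries per group. All cells were the same line with no drug named in the labels, and no untransfected cells were analysed here. The title and labels name SKP2 as the target, while the design text names ZIP7, the zinc transporter encoded by SLC39A7.

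Chromobox proteins carry a chromodomain that binds methylated lysines on histone H3. HP1 alpha, HP1 beta and HP1 gamma, encoded by CBX5, CBX1 and CBX3, bind methylated H3K9 in heterochromatin and recruit other silencing proteins through a chromoshadow domain. CBX2, CBX6, CBX7 and CBX8 are alternative subunits of canonical Polycomb repressive complex 1 (PRC1), where they bind the H3K27 methylation deposited by Polycomb repressive complex 2 (PRC2). In breast cancer cells, lower HP1 alpha has been linked to invasive behaviour, and CBX proteins of PRC1 are known for opposing roles in proliferation and differentiation.

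Each library held between 35.5 and 49.9 M counts in genes. SKP2, the F-box protein that delivers p27 and other substrates for ubiquitination, was measured at 57.5, 63.8 and 64.8 CPM (gene counts relative to the scaled library total) in NC. It stood at 3.51, 3.31 and 3.91 CPM with SKP2-siRNA1 and at 6.09, 5.69 and 6.10 CPM with SKP2-siRNA2. SLC39A7 lay between 335 and 376 CPM in all 9 libraries. The line's markers summed to 7000 to 7380 CPM over 8 genes, but single markers moved in opposite directions beneath that sum. In NC, SKP2-siRNA1 and SKP2-siRNA2, FN1 averaged 717, 1250 and 470 CPM and AXL 1400, 630 and 1310 CPM. ESR1 and PGR, the estrogen and progesterone receptor genes, had at most 12 and 17 counts in a library. ERBB2 lay between 81.0 and 96.4 CPM, with means of 84.1 in NC, 94.4 with SKP2-siRNA1 and 88.1 with SKP2-siRNA2. Immune markers summed to 3.05 to 3.79 CPM in NC, 5.96 to 6.69 with SKP2-siRNA1 and 5.18 to 5.57 with SKP2-siRNA2 (8 genes, NKG7 at 0 in all libraries). Endothelial markers summed to 7.11 to 8.19, 15.7 to 17.4 and 7.94 to 9.49 CPM (6 genes, CLDN5 at 0), and fibroblast markers to 27.6 to 42.4, 26.8 to 30 and 18.0 to 23.1 CPM (7 genes, none at 0 in all). Luminal epithelial markers summed to 655 to 822, 686 to 709 and 669 to 835 CPM (8 genes). On the third principal component, with 11.6% of the variance, one side held NC replicate 1 (-30.3) and SKP2-siRNA2 replicate 3 (-14.6), and the other side NC replicate 3 (21.2) and SKP2-siRNA2 replicate 1 (21.7). The part of these differences in the results below was not tested.

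The 250 bases upstream of the RefSeq starts of the HP1 genes are shown because CBX5 and CBX3 begin next to genes on the opposite strand. A further reason is that CBX5 was lowest with SKP2-siRNA1 and CBX1 with SKP2-siRNA2. Of the 7 members, 5 matched the RefSeq table. Sequences are from RefSeq (GRCh38.p14), at chr12:54280123-54280372 for CBX5 and chr17:48101187-48101436 for CBX1, both on the minus strand, and chr7:26201193-26201442 for CBX3 on the plus strand. The outermost GENCODE 29 starts given below differ from these, so the CBX1 and CBX3 windows, and a small part of the CBX5 window, lie inside the GENCODE spans. Most of the CBX5 window also lies inside its opposite-strand neighbour HNRNPA1, which starts at chr12:54280193. The whole CBX3 window lies inside its neighbour HNRNPA2B1, which spans chr7:26173057-26201529. Capitals mark matches, on either strand, to the 5 kinds of motif searched: E-boxes, GC boxes, CCAAT boxes, YY1 motifs and E2F sites.
CBX5 upstream: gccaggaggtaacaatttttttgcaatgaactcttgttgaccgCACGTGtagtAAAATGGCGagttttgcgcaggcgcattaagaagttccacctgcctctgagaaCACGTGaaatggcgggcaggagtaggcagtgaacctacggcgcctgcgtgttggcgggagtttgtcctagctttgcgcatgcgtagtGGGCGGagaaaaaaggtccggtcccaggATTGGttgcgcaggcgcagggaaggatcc
CBX1 upstream: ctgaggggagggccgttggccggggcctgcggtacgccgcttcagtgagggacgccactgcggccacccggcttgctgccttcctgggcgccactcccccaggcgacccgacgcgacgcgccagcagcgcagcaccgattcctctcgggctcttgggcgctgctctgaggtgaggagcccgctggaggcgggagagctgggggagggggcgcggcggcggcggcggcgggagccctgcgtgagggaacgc
CBX3 upstream: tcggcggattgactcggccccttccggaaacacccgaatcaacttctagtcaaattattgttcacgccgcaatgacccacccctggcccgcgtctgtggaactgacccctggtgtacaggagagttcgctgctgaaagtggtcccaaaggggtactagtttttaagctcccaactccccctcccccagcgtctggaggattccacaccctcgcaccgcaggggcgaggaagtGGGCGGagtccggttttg
The CBX5 window held 2 E-boxes, 1 YY1 motif, 1 GC box and 1 CCAAT box, with no overlap between them. Its E-boxes and YY1 motif lie in the part inside HNRNPA1. The CBX3 window held 1 GC box. The CBX1 window held none of the motifs and had 76.0% G and C, against 58.8% for CBX3 and 54.8% for CBX5. An E-box was counted where the window read CACGTG, as 6.3% of 35116 windows of the same length did. A GC box, found in 42.6% of windows, was read from the letters GGGCGG. The CCAAT box, in 32.0% of windows, was searched under the letters of its name. The YY1 motif AANATGGCG was in 1.4%. E2F sites were searched as TTTCCCGC, TTTCGCGC, TTTGCCGC or TTTGGCGC, and 2.8% of windows held one. None of the 3 HP1 windows held an E2F match. A match describes letters only.

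Per length of exon, taken as the union of annotated exons, CBX3 and CBX1 were the most abundant chromobox transcripts in NC. The places and overlaps below can change with the length used. CBX3 has 4641 bases of exon but 2128 in its longest coding transcript, against 3087 and 2422 for CBX1. CBX3 was measured at 51.7, 58.8 and 58.9 CPM per kb and CBX1 at 51.3, 53.5 and 55.6 CPM per kb, and these ranges overlapped. CBX5 followed at 18.1 to 20.9 CPM per kb and CBX6, a PRC1 subunit, at 12.5 to 15.3. Lower still were the other PRC1 subunits: CBX2 at 5.58 to 6.79, CBX8 at 3.48 to 4.34 and CBX7 at 1.93 to 2.10 CPM per kb, with no overlap between neighbours in this order. With SKP2-siRNA1, CBX5 dropped from the third to the fifth place, where its 4.76 to 4.98 CPM per kb overlapped the 4.92 to 4.97 of CBX2. With SKP2-siRNA2, CBX1 moved below CBX5, at 12.7 to 12.8 against 18.0 to 19.3 CPM per kb, and CBX6, CBX2 and CBX8 overlapped in neighbouring pairs.

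CBX5 was low with SKP2-siRNA1 and near its NC level with SKP2-siRNA2. CBX5 (ENSG00000094916) spans chr12:54230940-54280133 on the minus strand in GENCODE 29. Its level was 272, 299 and 315 CPM in NC, from 9697, 13517 and 14882 counts. It was 73.2, 74.9 and 71.5 CPM with SKP2-siRNA1, from 3105, 2922 and 3531 counts, and 290, 289 and 271 CPM with SKP2-siRNA2. Every SKP2-siRNA1 library lay far below the other 6, and the SKP2-siRNA2 libraries overlapped NC. The means were 295 ± 21.4, 73.2 ± 1.67 and 283 ± 10.7 CPM (SD, n = 3). The log2 fold change against NC was -2.01 (SE 0.06), 4.03-fold lower, for SKP2-siRNA1 and -0.06 (SE 0.05) for SKP2-siRNA2, and the siRNAs differed by 1.95 (SE 0.06). Counting CBX5 itself, 17 of the 16575 genes had a log2 change at least as low with SKP2-siRNA1. CBX5 was singled out for these values, so they are a description and no test of them is given. Both siRNAs were compared with the same NC libraries.

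CBX1 fell with both siRNAs and much further with SKP2-siRNA2. CBX1 (ENSG00000108468, chr17:48070052-48101521, minus strand), the HP1 beta gene, was measured at 158, 165 and 172 CPM in NC. It stood at 120, 114 and 115 CPM with SKP2-siRNA1 and at 39.6, 39.6 and 39.2 CPM with SKP2-siRNA2. The groups did not overlap in any of the comparisons. The log2 fold change was -0.50 (SE 0.04, edgeR quasi-likelihood test, adjusted p = 7.5e-07) with SKP2-siRNA1 and -2.06 (SE 0.05, adjusted p = 4.87e-12) with SKP2-siRNA2, 4.18-fold lower. The difference between siRNAs was -1.56 (SE 0.04, adjusted p = 3.44e-11). With SKP2-siRNA2, 45 genes, CBX1 included, had a change at least as low. A bulk library cannot tell fewer cells of one state from less of the transcript per cell.

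CBX3, the HP1 gamma gene, fell with both siRNAs. CBX3 (ENSG00000122565, chr7:26201162-26213356, plus strand) was at 240, 273 and 273 CPM in NC, 231, 230 and 228 with SKP2-siRNA1, and 216, 217 and 201 with SKP2-siRNA2. Every siRNA library lay below every NC library. The log2 fold change was -0.19 (SE 0.05, adjusted p = 0.0115) with SKP2-siRNA1 and -0.31 (SE 0.05, adjusted p = 0.000369) with SKP2-siRNA2. Without NC replicate 2 the first of these gave an adjusted p of 0.0612 and no longer passed. The siRNAs differed by -0.12 (SE 0.05, adjusted p = 0.0866). The 95% interval, from normal quantiles and not adjusted for the number of genes, ran from -0.23 to -0.01.

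**Figure D1:**
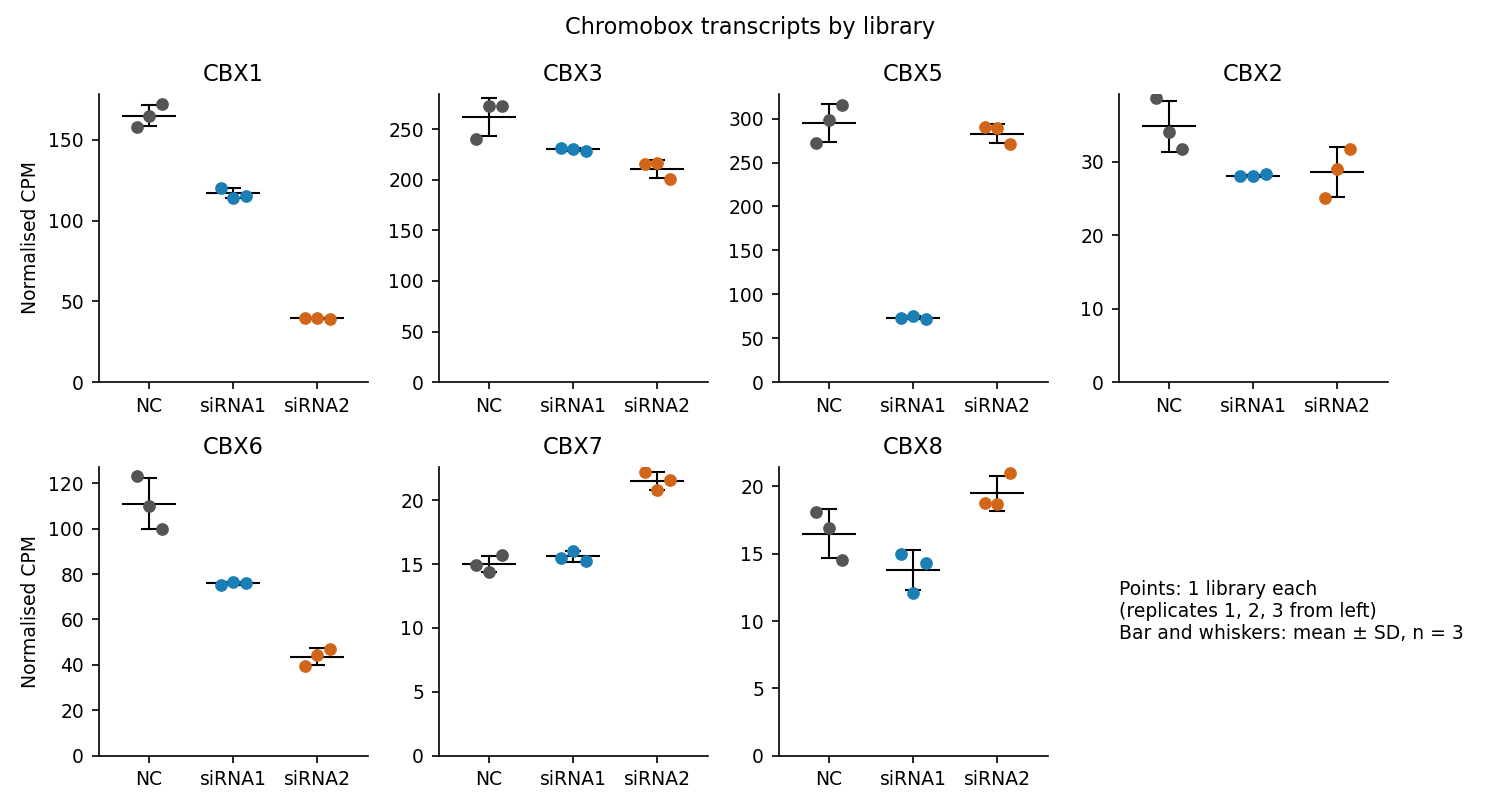
Normalised CPM (vertical axes from 0, 1 scale per panel) of the 7 chromobox genes in NC, SKP2-siRNA1 and SKP2-siRNA2, with points for libraries and bars for the mean ± SD of 3. CBX5 was low in the 3 SKP2-siRNA1 libraries (71.5 to 74.9 CPM), and CBX1 and CBX6 were lowest in the 3 SKP2-siRNA2 libraries.

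Added per length, the 3 HP1 transcripts gave 121 to 135 CPM per kb in NC, 91.2 to 93.6 with SKP2-siRNA1 and 74.1 to 78.9 with SKP2-siRNA2. The share of CBX5 in that sum was 15.1% ± 0.272 in NC, 5.28% ± 0.134 with SKP2-siRNA1 and 24.4% ± 0.0911 with SKP2-siRNA2 (SD, n = 3). The share of CBX1 was 41.3% ± 0.971, 41.0% ± 0.596 and 16.6% ± 0.479. CBX3 made up 43.5% ± 0.909, 53.7% ± 0.482 and 59.0% ± 0.411. The summed HP1 level was lower in every siRNA library than in every NC library, and CBX5 took its smallest share with SKP2-siRNA1 and CBX1 with SKP2-siRNA2. The sum holds CBX5, which was chosen for its low level with SKP2-siRNA1, so its part in the sum there restates that choice. A share can grow while the level falls: CBX3 averaged 56.4 CPM per kb in NC, 49.5 with SKP2-siRNA1 and 45.6 with SKP2-siRNA2. The lengths are the union of annotated exons (15040 bases for CBX5, 4641 for CBX3 and 3087 for CBX1), so a gene that uses only part of its exons is understated. The longest coding transcripts have 11528, 2128 and 2422 bases.

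**Figure D2:**
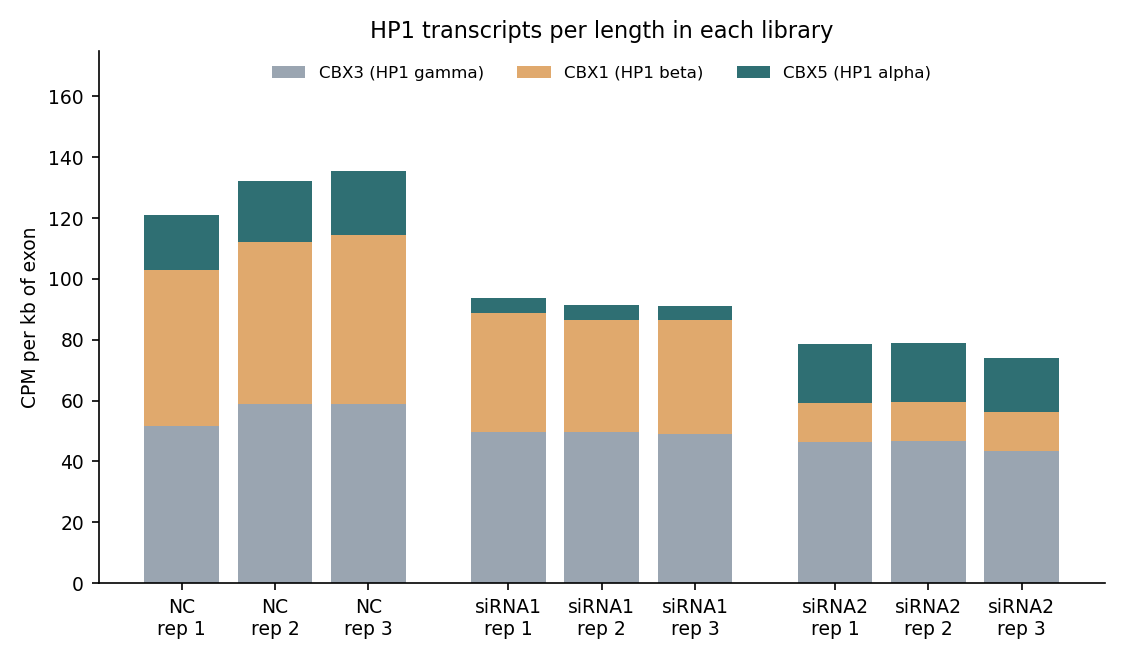
CPM per kb of annotated exon (vertical axis) of CBX3, CBX1 and CBX5, stacked for each of the 9 libraries. The bars reach 121 to 135 in NC, 91.2 to 93.6 with SKP2-siRNA1, where the CBX5 layer is thinnest, and 74.1 to 78.9 with SKP2-siRNA2, where the CBX1 layer is thinnest.

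Among the PRC1 subunits, CBX6 fell with both siRNAs. CBX6 (ENSG00000183741, chr22:38861450-38872314) was at 123, 110 and 100 CPM in NC, 75.2, 76.3 and 76.2 with SKP2-siRNA1, and 39.7, 44.4 and 46.8 with SKP2-siRNA2. The 3 groups did not overlap. The log2 fold change was -0.55 (SE 0.07, adjusted p = 5.11e-05) with SKP2-siRNA1 and -1.35 (SE 0.07, adjusted p = 1.74e-08) with SKP2-siRNA2, 2.55-fold lower. The siRNAs differed by -0.80 (SE 0.07, adjusted p = 1.8e-06).

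CBX2 was lower by a similar amount with each siRNA. CBX2 (ENSG00000173894, chr17:79778132-79787983) was at 38.6, 34.0 and 31.7 CPM in NC, 28.0, 28.0 and 28.3 with SKP2-siRNA1, and 25.1, 29 and 31.7 with SKP2-siRNA2. The SKP2-siRNA1 libraries lay below NC, while the highest SKP2-siRNA2 library and the lowest NC library met at the printed precision. The log2 fold change was -0.31 (SE 0.09, adjusted p = 0.011) with SKP2-siRNA1 and -0.28 (SE 0.09, adjusted p = 0.0164) with SKP2-siRNA2. Without SKP2-siRNA2 replicate 1 the second gave an adjusted p of 0.0625 and no longer passed. The siRNAs differed by 0.03 (SE 0.09, adjusted p = 0.825), with a 95% interval from -0.14 to 0.20, and the sign of this difference turned when SKP2-siRNA2 replicate 3 was left out.

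CBX7 rose with SKP2-siRNA2. CBX7 (ENSG00000100307, chr22:39120167-39152674) was at 14.9, 14.4 and 15.7 CPM in NC, 15.5, 16.0 and 15.2 with SKP2-siRNA1, and 22.2, 20.8 and 21.6 with SKP2-siRNA2. The 3 SKP2-siRNA2 libraries lay above the other 6. The log2 fold change was 0.53 (SE 0.06, adjusted p = 1.04e-05), 1.44-fold higher, with SKP2-siRNA2. With SKP2-siRNA1 it was 0.06 (SE 0.06, adjusted p = 0.489, 95% interval -0.06 to 0.18), and its sign turned when only both groups compared were fitted. The siRNAs differed by 0.47 (SE 0.06, adjusted p = 2.83e-05).

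CBX8 passed the threshold only between the siRNAs. CBX8 (ENSG00000141570, chr17:79792132-79801683), next to CBX2, was at 18.1, 16.9 and 14.5 CPM in NC, 15, 12.1 and 14.3 with SKP2-siRNA1, and 18.8, 18.7 and 21.0 with SKP2-siRNA2. The SKP2-siRNA1 libraries overlapped NC and the SKP2-siRNA2 libraries lay above it. Against NC the log2 fold change was -0.25 (SE 0.10, adjusted p = 0.0506) and 0.24 (SE 0.10, adjusted p = 0.0519). Both lie at the threshold, and 6 of 17 alternatives passed for the first and 5 of 17 for the second. Those for the first were RLE scaling, no filter, DESeq2, and fits without NC replicate 3, SKP2-siRNA1 replicate 1 or SKP2-siRNA2 replicate 3. Those for the second were library size only, no filter, and fits without NC replicate 1, SKP2-siRNA1 replicate 2, or NC replicate 1 and SKP2-siRNA2 replicate 3 together (adjusted p from 0.00992 to 0.216 and from 0.00857 to 0.196 over the alternatives). The siRNAs differed by 0.50 (SE 0.10, adjusted p = 0.000838), with every SKP2-siRNA2 library above every SKP2-siRNA1 library.

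**Figure D3:**
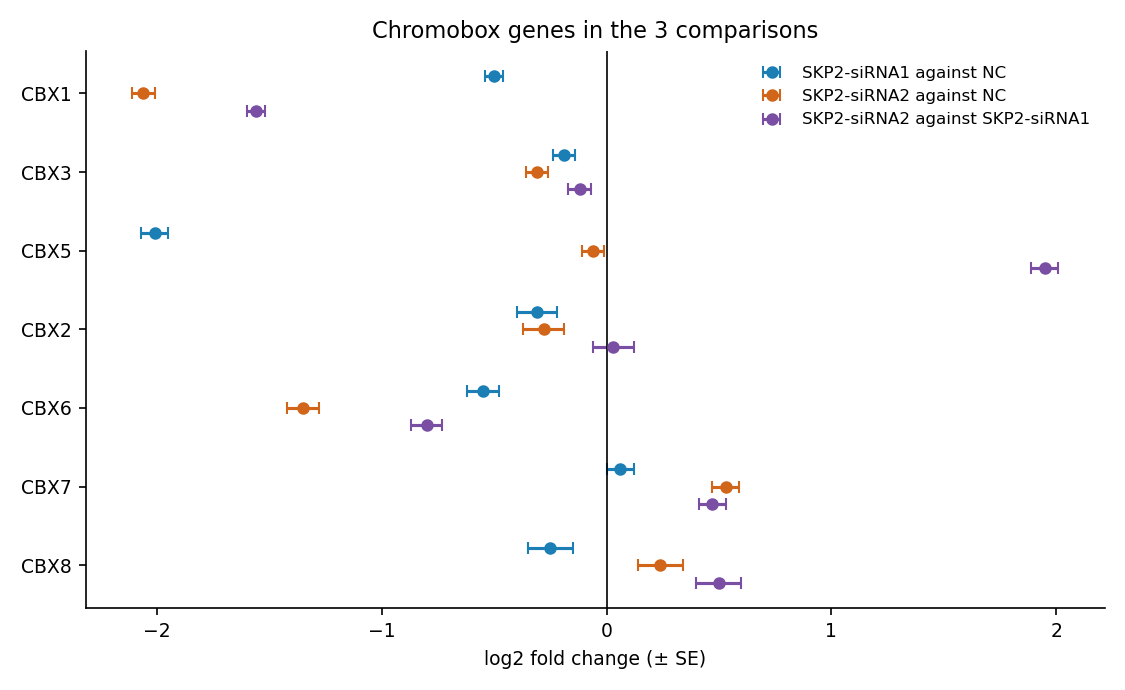
Log2 fold change ± SE (horizontal axis) of the 7 chromobox genes in SKP2-siRNA1 against NC, SKP2-siRNA2 against NC and SKP2-siRNA2 against SKP2-siRNA1. The points farthest from 0 against NC are CBX5 with SKP2-siRNA1 (-2.01) and CBX1 with SKP2-siRNA2 (-2.06).

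Leaving CBX5 aside, 0 of the other 6 chromobox genes rose and 4 fell with SKP2-siRNA1 (CBX1, CBX2, CBX3 and CBX6), where 45.5% of all genes tested passed, 25.0% higher and 20.5% lower. With SKP2-siRNA2, 1 rose and 4 fell, where 49.4% of all genes passed, 25.2% higher and 24.1% lower. Between the siRNAs, CBX7 and CBX8 were higher with SKP2-siRNA2 and CBX1 and CBX6 lower, against 50.5% of all genes, 25.2% higher and 25.3% lower. Among the same 6 genes, the groups did not overlap for 4 with SKP2-siRNA1, 6 with SKP2-siRNA2 and 5 between the siRNAs, against 54.8%, 53.6% and 64.0% of all genes. The median log2 change over the 6 genes was -0.28, -0.29 and -0.05, against 0.02, 0.03 and 0.03 over all genes tested. CBX2, CBX6 and CBX8 shared one feature among replicates: each was highest within NC in replicate 1 and highest within SKP2-siRNA2 in replicate 3, the libraries on one side of the third principal component. Without both of these libraries, CBX6 was at -0.49 and -1.33 on the log2 scale against NC, CBX2 at -0.24 and -0.28, and CBX8 at -0.19 and 0.26, the second of which then passed and brought the count with SKP2-siRNA2 to 6.

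Start sites of CBX5 and CBX3 lie beside those of abundant RNA-binding protein genes. HNRNPA1, which encodes a splicing factor, starts 60 bases from CBX5 on the other strand (GENCODE 29). HNRNPA2B1, which encodes a related factor, starts 367 bases from CBX3 and overlaps its first bases. HNRNPA1 was at 594, 678 and 727 CPM in NC, 521, 504 and 506 with SKP2-siRNA1, and 644, 602 and 611 with SKP2-siRNA2. It fell with SKP2-siRNA1, by a log2 of 0.39 against the 2.01 of CBX5 (HNRNPA1 -0.39, SE 0.06, adjusted p = 0.000266), and its SKP2-siRNA2 libraries overlapped NC (-0.11, SE 0.06, adjusted p = 0.193). The siRNAs differed in HNRNPA1 by 0.28 (SE 0.06, adjusted p = 0.00269).

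HNRNPA2B1 was at 1620, 1810 and 1840 CPM in NC, 1220, 1190 and 1210 with SKP2-siRNA1, and 877, 837 and 817 with SKP2-siRNA2. HNRNPA2B1 fell with both siRNAs, by log2 changes of -0.54 (SE 0.06, adjusted p = 3.8e-06) and -1.06 (SE 0.06, adjusted p = 6.46e-09). As a percentage of the NC mean, CBX3 was 87.0 to 88.2 and HNRNPA2B1 67.9 to 69.6 with SKP2-siRNA1, and CBX3 76.9 to 82.9 and HNRNPA2B1 46.5 to 50 with SKP2-siRNA2. CBX5 was 24.2 to 25.4 and HNRNPA1 75.6 to 78.2 with SKP2-siRNA1, against 91.8 to 98.1 and 90.4 to 96.6 with SKP2-siRNA2. The strand setting of the counting is not given in the sources used here, so reads where CBX3 and HNRNPA2B1 overlap could not be assigned by strand with certainty. Of the genes that overlap the other members, none had more than 3 counts in a library, and the 16 CBX pseudogenes had at most 12.

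**Figure D4:**
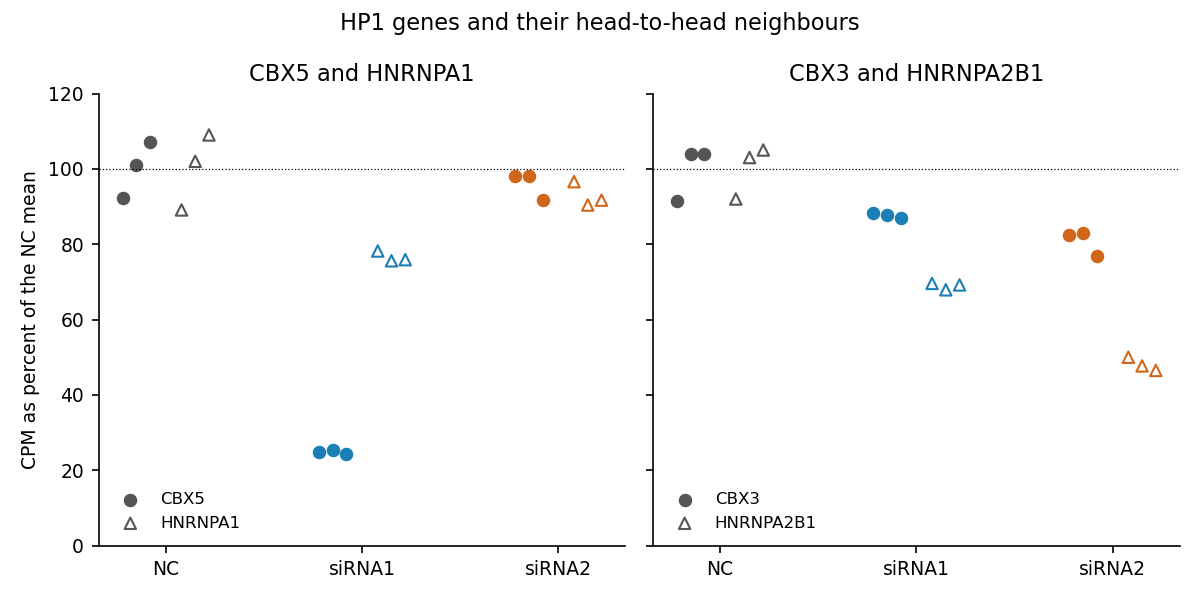
CPM of each library as a percent of the NC mean (vertical axis from 0) for CBX5 and HNRNPA1 and for CBX3 and HNRNPA2B1, with filled circles for the chromobox gene and open triangles for its neighbour. With SKP2-siRNA1, CBX5 sits at 24.2 to 25.4 while HNRNPA1 sits at 75.6 to 78.2.

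Over a list of 11 neighbouring genes, 8 were tested: 3 rose and 3 fell with SKP2-siRNA1 (median -0.03), and 4 rose and 2 fell with SKP2-siRNA2 (median 0.02). Of all genes tested, 25.0% rose and 20.5% fell with SKP2-siRNA1, and 25.2% rose and 24.1% fell with SKP2-siRNA2. The neighbour counts with SKP2-siRNA2 moved to 2 rises without SKP2-siRNA2 replicate 1 or replicate 2, and to 4 falls without NC replicate 1 or SKP2-siRNA2 replicate 1. PDGFB, a growth factor gene 92.1 kb from the CBX7 start, rose with one siRNA and fell with the other. It averaged 1.40 ± 0.324 CPM in NC, 0.475 ± 0.0333 with SKP2-siRNA1 and 4.16 ± 0.136 with SKP2-siRNA2 (SD, n = 3). The counts were low, at 62, 61 and 52 in NC and 19, 20 and 23 with SKP2-siRNA1. PDGFB reached the mean of 2 CPM required of named genes only through its level with SKP2-siRNA2. The log2 changes were -1.53 (SE 0.19, adjusted p = 2.55e-05) and 1.59 (SE 0.15, adjusted p = 1.24e-06), a difference of 3.12 (SE 0.17, adjusted p = 9.07e-09).

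The siRNA sequences were not used here, so a match between an siRNA and a chromobox transcript could not be examined. As a description, the longest run of identical bases, on the same strand, between the SKP2 coding sequence and the longest coding transcript of each member was counted, an analysis added after the values were known. It was 12 bases for CBX5, a length that 36.2% of 13102 genes reached or exceeded, 10 for CBX1 (96.9%), 15 for CBX6 (0.9%), 13 for CBX8 (12.1%) and 11 for CBX2, CBX3 and CBX7 (75.2%). Against every annotated SKP2 transcript, untranslated regions included, it was 40 bases for CBX5 (0.6%), inside its 3′ UTR, and 10 for CBX1 (99.7%). For CBX6 it was 19 (15.3%), for CBX8 18 (17.5%), for CBX2 13 (49.0%), and for CBX3 and CBX7 11 (94.8%). CBX5 has the longest 3′ UTR of the members, at 10818 bases, against 1386 for CBX1, and longer transcripts have more places for a shared run. Whether either siRNA acts on CBX5 or CBX1 directly was not tested.

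Among the genes most like CBX5 over the 9 libraries, by Pearson correlation of log2 CPM among 11315 protein-coding genes, were GLE1 (r = 0.9989), ZCCHC8 (0.998), PIKFYVE (0.9978) and AXL (0.9968). GLE1 encodes an mRNA export factor and AXL a receptor tyrosine kinase. Their log2 changes with SKP2-siRNA1 were -1.04, -0.68, -0.78 and -1.15, and with SKP2-siRNA2 between -0.09 and -0.01. For CBX1, chosen for this after its values were seen, they were SEC22C (0.9989), GPD2 (0.9982), BRI3BP (0.9981), TRIM44 (0.9981) and ATP13A3 (0.998). Their log2 changes with SKP2-siRNA2 were -1.04, -1.57, -2.27, -1.28 and -2.15. The 9 points fall into the 3 groups, so these correlations follow the group means and are a description.

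Counts in the gene lists below are read beside the shares of all genes tested: 25.0% rose and 20.5% fell with SKP2-siRNA1, and 25.2% rose and 24.1% fell with SKP2-siRNA2. Partners and readers that work with HP1 included more falls than rises. Of 27 tested, 4 rose and 14 fell with SKP2-siRNA1 (median -0.21) and 6 rose and 13 fell with SKP2-siRNA2 (median -0.13), against medians of 0.02 and 0.03 over all genes. The falls were 51.9% and 48.1% of the list. The 4 rises were 2 without any one of NC replicate 1, NC replicate 2, SKP2-siRNA1 replicate 2 and SKP2-siRNA1 replicate 3. LBR, the inner nuclear membrane receptor that binds HP1, averaged 309 ± 21.7 CPM in NC, 120 ± 3.05 with SKP2-siRNA1 and 74.2 ± 2.09 with SKP2-siRNA2, a log2 of -1.37 (SE 0.05, adjusted p = 5.62e-10) and -2.06 (SE 0.05, adjusted p = 2.6e-11). INCENP, the chromosomal passenger subunit that HP1 binds, was at -1.38 and -1.11 (SE 0.07 each). ZNF462, a zinc finger protein that associates with HP1, rose by 0.54 and 0.51 (SE 0.05 each), from 75.7 ± 3.68 CPM in NC to 110 ± 2.45 and 108 ± 3.96. DNMT3B, a DNA methyltransferase, and LRIF1, a binding partner of HP1 and SMCHD1, each rose by 0.63 (SE 0.06) with SKP2-siRNA2.

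A list of H3K9 methyltransferase and demethylase genes was mixed. It also holds ATF7IP and WIZ, which encode cofactors of such enzymes, and KMT5B and KMT5C, whose products methylate histone H4. Of 21 tested, 3 rose and 7 fell with SKP2-siRNA1 (median -0.01), and 4 rose and 11 fell with SKP2-siRNA2 (median -0.22), so falls made up 33.3% and 52.4%. The 3 rises were 1 without SKP2-siRNA1 replicate 1 or replicate 3, and the 4 rises were 2 without NC replicate 3 or SKP2-siRNA2 replicate 3 and 1 without SKP2-siRNA2 replicate 2. Both SUV39H genes, whose products trimethylate H3K9, fell further with SKP2-siRNA1. SUV39H1 went from 28.3 ± 1.62 CPM in NC to 13.8 ± 1.03 and 19.1 ± 0.761, and SUV39H2 from 46.6 ± 4.0 to 22.1 ± 0.158 and 40.0 ± 1.48. The siRNAs differed by 0.47 (SE 0.07, adjusted p = 0.000108) for SUV39H1 and 0.85 (SE 0.06, adjusted p = 1.54e-07) for SUV39H2. The demethylase genes moved apart: KDM3A rose by 0.43 and 0.61 (SE 0.04 each), whereas KDM1A changed by -0.84 (SE 0.05) and PHF2 by -0.87 (SE 0.06) with SKP2-siRNA2.

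Of the other PRC1 subunits, 22 were tested: 6 rose and 4 fell with SKP2-siRNA1 (median 0.05), and 4 rose and 7 fell with SKP2-siRNA2 (median 0.02). With SKP2-siRNA1 these shares, 27.3% and 18.2%, are near the 25.0% and 20.5% of all genes, and with SKP2-siRNA2 they are 18.2% and 31.8% against 25.2% and 24.1%. RNF2, the E3 ligase that ubiquitinates H2A, averaged 34.7 ± 1.11 CPM in NC, 39.9 ± 1.82 with SKP2-siRNA1 and 15.8 ± 0.710 with SKP2-siRNA2. The siRNAs differed in RNF2 by -1.34 on the log2 scale (SE 0.06, adjusted p = 9.76e-10). The rise with SKP2-siRNA1, 0.20 (SE 0.06, adjusted p = 0.0098), did not pass without SKP2-siRNA1 replicate 3, while the change with SKP2-siRNA2 was -1.13 (SE 0.06, adjusted p = 5.43e-09). SCML2 was lower with both siRNAs (-0.88 and -1.06, SE 0.08 each). RYBP, which replaces CBX proteins in variant PRC1, rose by 0.34 with each (SE 0.05 each), from 73.4 ± 3.09 to 93.1 ± 2.31 and 93.0 ± 4.27 CPM.

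Subunits of PRC2, which deposits the mark that CBX2, CBX6, CBX7 and CBX8 bind, included more falls than rises. Of 13 tested, 2 rose and 8 fell with SKP2-siRNA1 (median -0.22), and 2 rose and 7 fell with SKP2-siRNA2 (median -0.20). Falls made up 61.5% and 53.8% of the list against 20.5% and 24.1% of all genes, and rises 15.4% with each siRNA against 25.0% and 25.2%. The 2 rises with SKP2-siRNA1 were 4 without NC replicate 3. EZH2, the catalytic subunit, went from 91.8 ± 4.64 CPM in NC to 47.8 ± 1.64 and 67.5 ± 2.30, a log2 of -0.94 and -0.44 (SE 0.05 each). PHF19 was at -1.11 and -0.69 (SE 0.04 each). JARID2, which recruits PRC2, rose by 0.32 and 0.42 (SE 0.05 each).

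Other genes with a chromodomain gave counts that depended on single libraries. Of 18 tested, 6 rose and 6 fell with SKP2-siRNA1 (3 rises without NC replicate 1 or SKP2-siRNA1 replicate 2), and 2 rose and 5 fell with SKP2-siRNA2. The 2 rises were 1 without any single library other than NC replicate 3, and the 5 falls were 8 without NC replicate 1 or SKP2-siRNA2 replicate 1. The medians were -0.03 with each. Rises were 33.3% and 11.1% of the list and falls 33.3% and 27.8%. The remodeller gene CHD7 went from 60.8 ± 2.79 CPM in NC to 39.3 ± 1.43 with SKP2-siRNA1, a log2 of -0.63 (SE 0.05, adjusted p = 3.26e-07). MORF4L1, whose chromodomain reads H3K36 methylation, rose by 0.41 (SE 0.05, adjusted p = 3.33e-05) with SKP2-siRNA2.

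HOX genes, a classic group of Polycomb targets, were mostly too low to test. Of 39, 10 passed the filter: 1 rose and 0 fell with SKP2-siRNA1 (edgeR), and 4 rose and 1 fell with SKP2-siRNA2, with medians of 0.01 and 0.34. The single rise was lost without NC replicate 3 or SKP2-siRNA1 replicate 3, 1 gene fell with SKP2-siRNA1 without NC replicate 1 or SKP2-siRNA2 replicate 1, and 2 fell with SKP2-siRNA2 without its replicate 3. HOXD1 went from 3.25 ± 0.353 CPM in NC to 4.97 ± 0.499 and HOXB3 from 2.48 ± 0.334 to 3.78 ± 0.173 with SKP2-siRNA2.

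Chromosome 19 ZNF genes, many of which encode KRAB zinc finger proteins in HP1-bound clusters, had counts close to those of all genes with SKP2-siRNA2. Of 221 tested, 60 rose and 29 fell with SKP2-siRNA1 (median 0.07), and 50 rose and 57 fell with SKP2-siRNA2 (median 0.02). These are 27.1% and 13.1% against 25.0% and 20.5% of all genes, and 22.6% and 25.8% against 25.2% and 24.1%. The 29 falls were 44 without NC replicate 1 and SKP2-siRNA2 replicate 3 together. ZNF114 rose by 1.61 and 1.38 (SE 0.08 each), from 14.3 ± 1.29 CPM in NC to 43.6 ± 1.77 and 37.3 ± 2.92. ZNF93, whose product binds LINE-1 elements, was at -1.01 and -1.29 (SE 0.09 each).

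Proliferation genes were lower than in NC in nearly every case: 30 of 30 fell with SKP2-siRNA1 (median -1.28) and 29 of 30 with SKP2-siRNA2 (median -0.89). KIF2C, a mitotic kinesin gene, went from 226 ± 15 CPM to 68.9 ± 2.17 and 87.8 ± 2.41. BIRC5, the survivin gene, averaged 169 ± 4.70, 43.1 ± 2.99 and 151 ± 2.6 CPM, and the siRNAs differed in it by 1.81 on the log2 scale (SE 0.05, adjusted p = 3.56e-11). The part of this shift in the falls of CBX1, CBX2, CBX3, CBX6 and the HP1 and Polycomb partners was not tested.

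**Figure D5:**
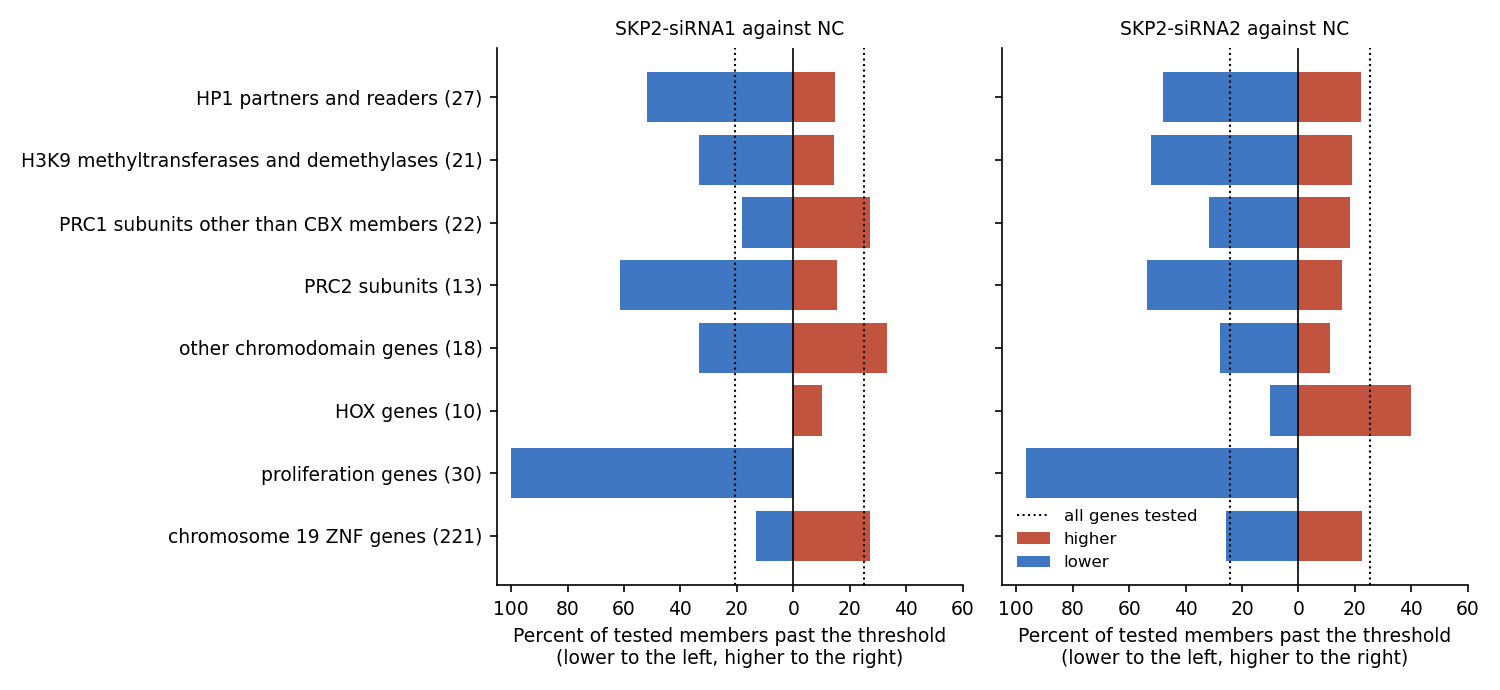
Percent of the tested members of 8 gene lists that passed the threshold (horizontal axis), with lower to the left and higher to the right, for each siRNA against NC; dotted lines give the shares over all genes tested (25.0 and 20.5 with SKP2-siRNA1, 25.2 and 24.1 with SKP2-siRNA2). Proliferation genes reach 100 and 96.7 on the lower side.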

How the data were processed

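The deposited tables give unnormalized counts for each Ensembl gene identifier in a library. HTSeq 0.6.1, STAR, DESeq2 1.16.1, FastQC 0.11.2 and Trim Galore 0.4.1 are named in the submitters' processing notes. The build, annotation and strand setting are not given in the sources used here. Reads assigned to no gene (5.336 to 5.917% of all reads the files count) or to several genes (3.875 to 3.966%) were left out. The files give 0 reads aligned to several places, so what became of reads shared by near-identical copies is not known.

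Symbols came from the supplied name table (57754) and GENCODE 29 (521), which also gave coordinates and exon lengths on GRCh38. All 3 groups were fitted together with edgeR 4.0.16 in R 4.3.3 (TMM scaling, filterByExpr with minimum count 10 and minimum total 15, quasi-likelihood F tests, two-sided, Benjamini-Hochberg over 16575 genes, threshold 0.05). The fit was tested on simulated data with a common spread for all genes. Over the 3 comparisons it recovered 12 to 26% of 1.25-fold changes, 64 to 76% of 1.5-fold changes and 84 to 88% of 2-fold changes. It made 5 to 9 false calls among 16375 unchanged genes. CPM were computed from the counts with the scaled library sizes, and SE and intervals are of the log2 change. The labels do not say that replicates are separate cultures, so the spread behind the p-values, which is that between these samples, may be technical.

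The members and gene lists were chosen with earlier results of these data known. Besides the members, SKP2, SLC39A7 and genes starting within 1 kb on the opposite strand were always named. From each list the rule took, per comparison with NC, the 2 largest rises and 2 largest falls past the threshold with a mean of at least 2 CPM, and the text names some of these. For CBX5 the rule also took the 5 protein-coding genes with the highest correlation over the libraries, of which 1 is not reported here. Alternatives were other scalings, other filters, DESeq2 1.42.0, a replicate block, fits of only the groups compared, and left-out libraries.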

Additional observations from a re-analysis of the deposited data

Results flagged for a closer look

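The effects of both siRNAs differed for 4 of the 6 chromobox genes other than CBX5 by the edgeR quasi-likelihood test of SKP2-siRNA2 against SKP2-siRNA1. In that comparison 50.5% of all genes tested passed, and the groups did not overlap for 64.0%. The log2 difference was -1.56 for CBX1 (adjusted p = 3.44e-11) and -0.80 for CBX6 (adjusted p = 1.8e-06), with all 3 SKP2-siRNA2 libraries below all 3 SKP2-siRNA1 libraries for each. It was 0.47 for CBX7 (adjusted p = 2.83e-05) and 0.50 for CBX8 (adjusted p = 0.000838), with all 3 SKP2-siRNA2 libraries above. CBX5, chosen for its values, was left without a test.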

How the results depend on the processing

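Over 17 alternatives, the number of genes past the threshold ranged from 6429 to 8755 with SKP2-siRNA1, 7190 to 9152 with SKP2-siRNA2 and 7160 to 9414 between the siRNAs, and the number of chromobox genes other than CBX5 from 3 to 5, 4 to 6 and 4 to 5. All 102 of these counts stayed within 1.5 times the reported one. With a replicate block the genes numbered 6818, 7501 and 7500 and the chromobox genes 4, 5 and 4. Same-numbered libraries' deviations from their group means correlated at -0.498 to 0.055. Those of differently numbered libraries correlated at -0.197 to 0.502, the highest for NC replicate 1 with SKP2-siRNA2 replicate 3. These values cannot show whether libraries were paired, since deviations from a mean of 3 libraries depend on each other. When single libraries were left out, genes past the threshold ranged from 6429 to 8119, 7190 to 9152 and 7160 to 9414.

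Of 306 fold changes of the chromobox genes other than CBX5, 286 kept their direction and their side of the threshold, 2 no longer passed and 15 newly passed. The direction turned 3 times, at values near 0. CBX7 with SKP2-siRNA1 was -0.01 when only the groups compared were fitted. CBX2 between the siRNAs was -0.06 without SKP2-siRNA2 replicate 3, and -0.04 without NC replicate 1 and SKP2-siRNA2 replicate 3 together. Leaving out single libraries gave -0.06 to 0.10 for that CBX2 difference and 0.02 to 0.09 for CBX7 with SKP2-siRNA1. The cause was not tested. CBX5 ranged from -2.08 to -1.96 with SKP2-siRNA1, from -0.12 to -0.01 with SKP2-siRNA2 and from 1.93 to 2.00 between them. CBX3 between the siRNAs passed in 4 alternatives, with adjusted p from 0.0122 to 0.28. The lowest count of any member in a library was 474, for CBX8.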
